A study of Mus musculus with 8 samples.

Results

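A group of 8 genes of the clade A serpins was followed in whole back skin of Flg knockout and wild-type mice: the α1-antitrypsin copies Serpina1a, Serpina1b, Serpina1c, Serpina1d and Serpina1e, the antichymotrypsin relatives Serpina3c and Serpina3n, and Serpina12, which encodes vaspin. They are 8 of the 49671 genes in the deposited table, all 8 were found there, and they were picked because Serpina1b was higher in knockout and the others belong to the same family. The knockout-over-wild-type values of Serpina1b are therefore given as a description with no test. The samples were total shaved back skin from 8-week-old mice, 4 labelled ko/ko for Flg, the gene of the epidermal protein profilaggrin, and 4 labelled wt/wt. The labels name no strain, no other allele and no treatment, and they do not say how the knockout allele was made or whether each library came from its own mouse, so p-values measure the spread between these samples.

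Serpins are protease inhibitors that work as bait: a protease cuts an exposed stretch near the end of the protein, the reactive centre loop, and is trapped by the change of shape that follows. Clade A holds most of the serpins secreted into blood. α1-antitrypsin is made mainly in liver and inhibits neutrophil elastase, Serpina3n inhibits enzymes such as granzyme B and cathepsin G and is induced by inflammation and glucocorticoids, and vaspin is known from fat and from epidermis, where the kallikrein encoded by Klk7 is its target. Mice carry several copies each of Serpina1 and Serpina3 where humans have a single gene of each.

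All 8 genes lay on chromosome 12 of mm10, between positions 103728156 and 104414329. Their order was Serpina1b, Serpina1d, Serpina1a, Serpina1c, Serpina1e, Serpina12 and Serpina3c on the minus strand, followed by Serpina3n on the plus strand. The coding sequences of the 5 Serpina1 copies (GENCODE M21) were between 91.5% and 96.8% identical over 10 pairs, counting gaps as differences, with a median of 96.35%. Serpina3c and Serpina3n were 85.4% identical, and Serpina1 copies shared between 58.4% and 63.5% with the other 3 genes. Over 1159 windows of 60 coding bases, differences from Serpina1b summed over the other 4 copies had a median of 7, and the window with the most held 37. This window codes for the end of the reactive centre loop and the residues after it, and is shown because it is where the 5 inhibitors, and the reads that tell them apart, differ most. Capitals mark bases that differ from Serpina1b, and the window covers coding bases 1114 to 1173, or 1183 to 1242 in the longer Serpina1a.
Serpina1b: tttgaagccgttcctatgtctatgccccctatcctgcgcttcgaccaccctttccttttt
Serpina1a: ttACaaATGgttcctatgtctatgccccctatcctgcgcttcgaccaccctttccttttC
Serpina1c: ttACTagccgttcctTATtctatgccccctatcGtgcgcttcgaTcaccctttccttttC
Serpina1d: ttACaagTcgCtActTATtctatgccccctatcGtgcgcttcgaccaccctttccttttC
Serpina1e: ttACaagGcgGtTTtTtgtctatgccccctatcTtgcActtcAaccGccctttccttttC
The copies differed from Serpina1b at 6 bases in Serpina1a, 9 in Serpina1c, 10 in Serpina1d and 12 in Serpina1e.

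The copies were also alike just before their start sites. The next lines show 80 bases upstream of each RefSeq start (RefSeq, GRCm38.p6, minus strand), set on a stretch the copies share, with bases that differ from Serpina1b in capitals. They are shown because the copies are nearly alike here and differ in level in skin. They lie at chr12:103738202-103738281, chr12:103863627-103863706, chr12:103904964-103905043, chr12:103773636-103773715 and chr12:103956962-103957041 in the order shown.
Serpina1b: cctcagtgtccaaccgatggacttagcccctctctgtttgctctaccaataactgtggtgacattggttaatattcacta
Serpina1a: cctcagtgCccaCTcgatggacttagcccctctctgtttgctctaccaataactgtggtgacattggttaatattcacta
Serpina1c: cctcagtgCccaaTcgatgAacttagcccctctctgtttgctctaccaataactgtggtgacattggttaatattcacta
Serpina1d: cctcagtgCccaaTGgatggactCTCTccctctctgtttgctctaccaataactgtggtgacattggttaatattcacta
Serpina1e: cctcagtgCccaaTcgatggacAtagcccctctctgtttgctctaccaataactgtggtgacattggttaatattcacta
Serpina1a, Serpina1c and Serpina1e differed from Serpina1b at 3 of these 80 bases and Serpina1d at 7. Levels were counted per gene and are not tied to these starts. The counted exons of Serpina1b reach upstream of its stretch to position 103830373, and those of Serpina1e reach upstream of its stretch to position 103958975.

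Serpina3n and Serpina3c shared 95.9% of a 74-base stretch before their starts, at chr12:104406572-104406645 on the plus strand and chr12:104153932-104154005 on the minus strand. It is shown because both held ACANNNTGT there, in capitals below, the spaced core of sites bound by the glucocorticoid receptor.
Serpina3n: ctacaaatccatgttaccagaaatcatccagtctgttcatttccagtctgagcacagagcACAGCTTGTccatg
Serpina3c: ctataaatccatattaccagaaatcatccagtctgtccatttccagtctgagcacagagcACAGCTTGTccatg
ACANNNTGT, which reads the same on both strands, was found in 6.8% of 32851 RefSeq promoter windows, which run from before to just after a gene's start. Among the other members Serpina1a held it as well, while Serpina1b, Serpina1c, Serpina1d, Serpina1e and Serpina12 had no match. TTCNNNGAA, a STAT site, matched in none of the 8 windows and in 8.3% of all, and TTGCNNAA, a C/EBP site, matched in Serpina1a, Serpina1b, Serpina1d, Serpina1e and Serpina12 and in 10.8% of all. Both strands were searched for each motif, and no match in the 8 windows overlapped a match of another motif.

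How far reads could be told apart differed between the genes. Of all 75-base windows of the gene's main transcript, 67.1% were found in no other gene's transcripts for Serpina1b, 75.8% for Serpina1e, 62.9% for Serpina1d, 42.5% for Serpina1a and 26.4% for Serpina1c. The shares were 99.7% for Serpina3c, 98.5% for Serpina3n and 100% for Serpina12. With 50-base windows the shares were 52.9% for Serpina1b, 62.1% for Serpina1e, 49.1% for Serpina1d, 32.6% for Serpina1a, 20.7% for Serpina1c, 95.7% for Serpina3c, 93.1% for Serpina3n and 100% for Serpina12. Every Serpina1 copy shared windows with the other 4 copies and also with Gm8893, and 50-base windows with B430119L08Rik as well. Neither the read length nor the rule for reads that align in several places is stated in the labels, so the split of reads among the Serpina1 copies is uncertain, and dropped or doubly counted reads could change their sum too. Serpina1b's counted exons held 2415 bases, of which 1021 (42.3%) lay outside its 1394-base main transcript, in exons of longer transcripts that reach position 103830373, beyond Serpina1d. The counts are per gene, and reads in those outer exons cannot be separated from the others.

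Library totals ran from 18483242 to 38545957 counts. Flg was lower in every knockout library, from 22.3 to 27.0 CPM, than in every wild-type library, from 46.5 to 66.9 CPM. The log2 fold change of Flg was -1.27 ± 0.12 (SE; edgeR adjusted p = 0.00326). CPM are counts scaled to library sizes that were adjusted by TMM factors, and all fold changes are knockout over wild type. Defining genes of back skin were present: the sum over 10 keratinocyte genes was between 13182 and 14067 CPM in wild type and between 11242 and 12875 CPM in knockout, with 9 of the 10 genes below 0 in log2 fold change. Over 10 fibroblast genes the sum was between 23648 and 37848 CPM in the 8 libraries.

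Levels spanned several orders of magnitude in this family. Per kilobase of counted exon, Serpina3n was highest in wild-type skin at 43.0 ± 13.1 CPM per kb (SD, n = 4), followed by Serpina12 at 23.5 ± 4.73 and Serpina3c at 9.73 ± 2.79. Serpina1b followed at 0.521 ± 0.185 CPM per kb, and the other copies lay lower, Serpina1d at 0.0817 ± 0.0452, Serpina1e at 0.0599 ± 0.048, Serpina1a at 0.0115 ± 0.023 and Serpina1c at 0.00531 ± 0.0106. Each gene down to Serpina1d was below the one before it in all 8 libraries, except Serpina12, which was below Serpina3n in 7 of 8. Serpina1d was above Serpina1e in 3 of 8 libraries and Serpina1a above Serpina1c in 3 of 8, so these neighbours did not separate. In knockout the first 4 kept this order, at 67.1 ± 4.67, 24.3 ± 1.73, 16.4 ± 1.75 and 1.84 ± 0.814 CPM per kb.

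Serpina1b was the copy with most reads, and its lowest knockout level lay above its highest wild-type level. Wild-type levels were 1.76, 0.751, 1.05 and 1.46 CPM in replicates 1 to 4, from 61, 19, 25 and 37 reads. In knockout they were 7.05, 3.64, 2.42 and 4.64 CPM, from 268, 68, 58 and 124 reads. Replicate 1 was highest and replicate 3 lowest in knockout, and the 4 knockout libraries spread more widely than the wild-type ones. The means were 1.26 ± 0.446 and 4.44 ± 1.97 CPM (SD, n = 4), a ratio of 3.53, and the log2 fold change was 1.81 ± 0.35 (SE), the 39th highest of 19099 tested genes. Over the fits that leave out 1 library it lay between 1.49 and 2.04. In each genotype replicate 1, which has the most counts of its genotype, had the highest Serpina1b level; the part of depth in this was not tested.

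**Figure D1:**
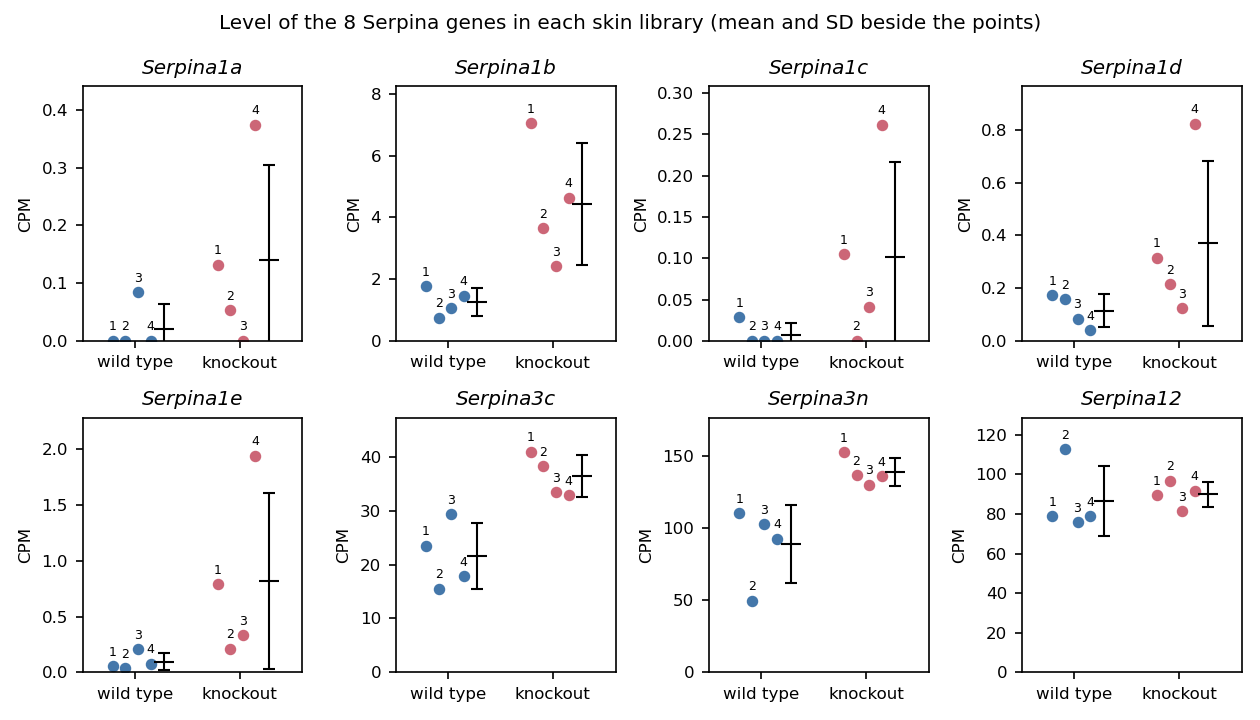
Level of each Serpina gene in CPM (linear axes from 0, a scale of its own in each panel) in 4 wild-type (blue) and 4 knockout (red) libraries, numbered by replicate, with the mean and SD beside the points (bars cut at 0). Serpina1b, Serpina1e, Serpina3c and Serpina3n did not overlap between genotypes, while Serpina12 overlapped, with wild-type replicate 2 highest at 113 CPM. A higher knockout level without overlap was found in 5.57% of tested genes. Serpina1b was picked for its rise, and Serpina1e was not tested and separated only by 0.211 against 0.214 CPM.

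The other 4 Serpina1 copies were near the limit of detection in wild-type skin. Serpina1e had 2, 1, 5 and 2 reads in wild type and 30, 4, 8 and 52 in knockout, or 0.0968 ± 0.0776 and 0.820 ± 0.79 CPM, with no overlap of CPM, although the nearest libraries, wild-type replicate 3 at 0.211 and knockout replicate 2 at 0.214 CPM, were closer than 1 read. Serpina1d had 6, 4, 2 and 1 reads in wild type and 12, 4, 3 and 22 in knockout, and its CPM overlapped. Serpina1a had 2 reads in all 4 wild-type libraries together and 16 in knockout, and Serpina1c had 1 and 12. For these, a count of 0 allows up to 3 reads, which is between 0.0789 and 0.161 CPM depending on the library, counting error only. None of the 4 passed the filter on low counts, which asks for about 0.397 CPM in at least 4 libraries, so 4 of the 8 members were tested. Fitted without that filter, their log2 fold changes were 3.13 ± 0.80 for Serpina1e, 1.64 ± 0.58 for Serpina1d, 2.70 ± 1.09 for Serpina1a and 3.06 ± 1.15 for Serpina1c (SE). None was called by edgeR, with adjusted p of 0.117, 0.189, 0.288 and 0.227, and at these counts the fitted folds depend on a prior.

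The sum of the copies does not depend on how uniquely placed reads were split among them. Serpina1a to Serpina1e together gave 2.02, 0.949, 1.43 and 1.58 CPM in wild type and 8.39, 4.12, 2.92 and 8.04 CPM in knockout, again without overlap. The ratio of means was 3.92 and the log2 fold change 1.97 ± 0.36 (SE); this sum holds Serpina1b and is a description. Without Serpina1b the remaining copies summed to 0.26, 0.198, 0.379 and 0.119 CPM in wild type and 1.34, 0.482, 0.4998 and 3.40 CPM in knockout. This smaller sum reached the filter on low counts only through knockout, so no test with that filter is read. Fitted with no filter except 1 count, its log2 fold change was 2.59 ± 0.77 (SE) and did not pass the edgeR test (adjusted p = 0.219). With the filter on low counts and without knockout replicate 4, the log2 fold change was 1.76 ± 0.49 (SE), a description with no test read.

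The share of Serpina1b in the mix of copies was lowest in knockout replicate 4. Serpina1b made up 83.1 ± 8.4% of the summed reads in wild type and 78.2 ± 13.9% in knockout (SD, n = 4). Knockout replicate 4 stood at 57.7% (124 of 215 reads, 95% Clopper-Pearson interval 50.8% to 64.4%, counting error only), while the other 7 libraries were between 73.5% and 92.5%. Serpina1e supplied most of the remainder there, with 52 reads. The interval of knockout replicate 4 overlapped those of wild-type replicate 2 (57.85% to 92.87%) and wild-type replicate 3 (55.64% to 87.12%). These held 24 and 34 summed reads, and the intervals of the remaining libraries lay above that of knockout replicate 4.

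Of the 12 hepatocyte genes 10 were highest in the same library, knockout replicate 4, while Ttr was highest in wild-type replicate 4, at 2.57 against 0.823 CPM in knockout replicate 4, and Cyp2e1 in wild-type replicate 3. Alb, the albumin gene, had 17, 15, 53 and 14 reads in wild type and 169, 99, 108 and 469 in knockout, or 0.968 ± 0.844 and 7.95 ± 6.41 CPM, without overlap (log2 fold change 3.07 ± 0.65, adjusted p = 0.0578). Leaving out 1 library moved this from 2.32 without knockout replicate 4 to 3.87 without wild-type replicate 3, where it passed (adjusted p = 0.0164), and the adjusted p reached 0.159 without wild-type replicate 1. Of the hepatocyte genes 4 passed the filter on low counts and 0 were called by edgeR. At an unadjusted p under 0.05, 1 was higher, as were 8.64% of all tested genes. DESeq2 and limma voom each called 1, higher, against 3.09% and 6.25% of all tested genes. A higher knockout level without overlap, as for Alb, was found in 5.57% of tested genes. Apob had 78 reads in knockout replicate 4 and at most 11 in the others, and Ahsg had 48 against at most 20. For Vtn the lead was small, at 6.66 CPM against 6.29 in knockout replicate 3. The share of all genes that were highest in knockout replicate 4 was not computed. The summed level of the list was between 140 and 727 CPM in wild type and between 108 and 275 CPM in knockout, most of it Cyp2e1, which fat also expresses, and 2 of the 12 genes were at 0 in at least 1 library. Without knockout replicate 4, Serpina1b kept a log2 fold change of 1.80 ± 0.39 (SE). Knockout replicate 1, the highest for Serpina1b at 7.05 CPM, had 4.45 CPM of Alb, close to knockout replicate 3 at 4.498, the lowest knockout library for Serpina1b. These Alb levels lay above the wild-type maximum of 2.23 CPM, in replicate 3. The part of liver transcripts in the Serpina1 values was not tested.

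**Figure D2:**
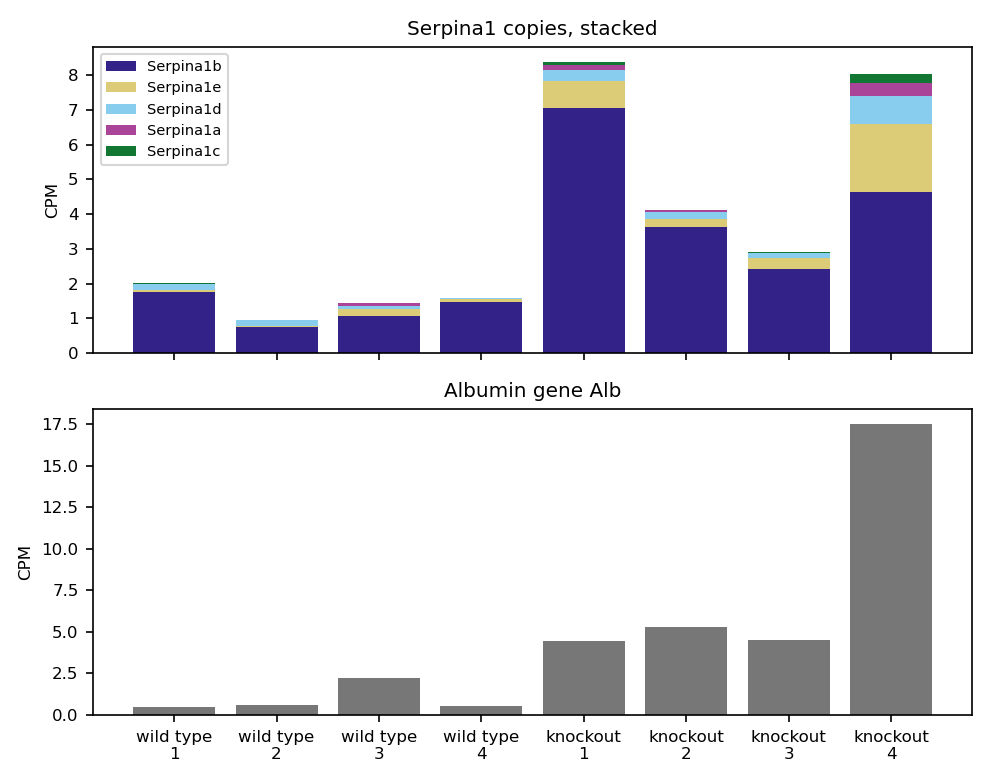
Upper panel: CPM of the 5 Serpina1 copies stacked for each library; lower panel: CPM of the albumin gene Alb in the same libraries, bars from 0. Serpina1b, the darkest part, makes up most of every bar, least in knockout replicate 4 at 57.7%, which also has the highest Alb level.

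Serpina3n was the most abundant member, and its wild-type levels were 110, 49.7, 102 and 92.5 CPM in replicates 1 to 4. In knockout they were 152, 136, 130 and 136 CPM, all above the highest wild-type library. The means were 88.7 ± 27.0 and 139 ± 9.63 CPM (SD, n = 4), and wild-type replicate 2 stood lowest. The log2 fold change of 0.64 ± 0.20 (SE) did not pass the edgeR test (adjusted p = 0.137). It passed without wild-type replicate 2, at 0.45 ± 0.09 (adjusted p = 0.0327). Over all fits that leave out 1 library the edgeR adjusted p reached 0.274.

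Serpina3c, a close relative of Serpina3n, showed the same arrangement at a lower level. It stood at 23.5, 15.5, 29.3 and 17.9 CPM in wild type and at 40.9, 38.2, 33.4 and 32.9 CPM in knockout, with no overlap. The means were 21.5 ± 6.17 and 36.4 ± 3.87 CPM (SD, n = 4), and wild-type replicate 3 was nearest to knockout. The log2 fold change was 0.76 ± 0.18 (SE, edgeR adjusted p = 0.0656). Without wild-type replicate 3 it was 0.95 ± 0.14 and passed (adjusted p = 0.00955), in a fit that called 1325 genes in all. Over all fits that leave out 1 library the edgeR adjusted p of Serpina3c reached 0.174.

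Serpina12, encoding vaspin, did not differ by more than the spread of the libraries. Its levels were 78.9, 113, 75.9 and 78.7 CPM in wild type and 89.3, 96.7, 81.5 and 91.8 CPM in knockout. The means were 86.5 ± 17.5 and 89.8 ± 6.37 CPM (SD, n = 4), and the log2 fold change was 0.05 ± 0.12 (SE, edgeR adjusted p = 0.843). A single library set the wild-type spread, since replicate 2 stood above every other library of either genotype. Without it the other 3 wild-type libraries lay below all knockout libraries, and the log2 fold change was 0.21 ± 0.08 (adjusted p = 0.167).

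Of the 3 tested members other than Serpina1b, edgeR called 0, with 2 at an unadjusted p under 0.05, where 1.41% of all 19099 tested genes were called (270) and 8.64% were higher and 10.9% lower at an unadjusted p under 0.05. DESeq2 and limma voom each called 2 of the 3, both higher, Serpina3c and Serpina3n, and called 1177 and 2556 genes in all. DESeq2 called 3.09% of all tested genes higher and 3.07% lower, and limma voom 6.25% and 7.14%, and counts of genes in the lists that follow are to be read beside these shares. Serpina3c and Serpina3n had no overlap of CPM between genotypes and were higher in knockout, which 5.57% of tested genes were. The median log2 fold change was 0.70 over the 4 tested members and -0.02 over all tested genes; Serpina1b is among the 4, and nothing is read from this median.

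The genotypes also differed in how far their libraries spread. The coefficient of variation was 30.4% in wild type and 6.95% in knockout for Serpina3n, 28.6% and 10.6% for Serpina3c, and 20.2% and 7.09% for Serpina12. For Serpina1b it was 35.4% in wild type and 44.3% in knockout. Whether the spreads differ was not tested.

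White adipocyte genes are given beside the Serpina3 genes because skin holds fat. For the 21 white adipocyte genes the median log2 fold change stood at 0.71, and 18 lay above 0; edgeR called 0 of them, with 14 higher at an unadjusted p under 0.05, DESeq2 called 10 and limma voom 15, against 8.64%, 3.09% and 6.25% of all tested genes. Their summed level was between 4812 and 8669 CPM in wild type and between 6913 and 8878 CPM in knockout, and none of the 21 was at 0 in any library. In this sum wild-type replicate 3, the highest wild-type library for Serpina3c, lay above knockout replicates 3 and 4. In the mean log2 CPM it stood at 7.02, above knockout replicate 3 at 6.68 and below knockout replicate 4 at 7.12. For Serpina3n the highest wild-type library was replicate 1, whose adipocyte sum was 5152 CPM. With the mean of this list as a covariate, the log2 fold change was 0.27 ± 0.16 for Serpina3c and 0.29 ± 0.29 for Serpina3n (SE, adjusted p = 0.549 and 0.746), 1.38 ± 0.62 for Serpina1b and 0.22 ± 0.19 for Serpina12. That fit called 2 genes in all, and Flg, at -1.30 ± 0.18, was not among the called (adjusted p = 0.0632). In bulk skin, fewer cells of a type and less RNA per cell cannot be told apart.

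**Figure D3:**
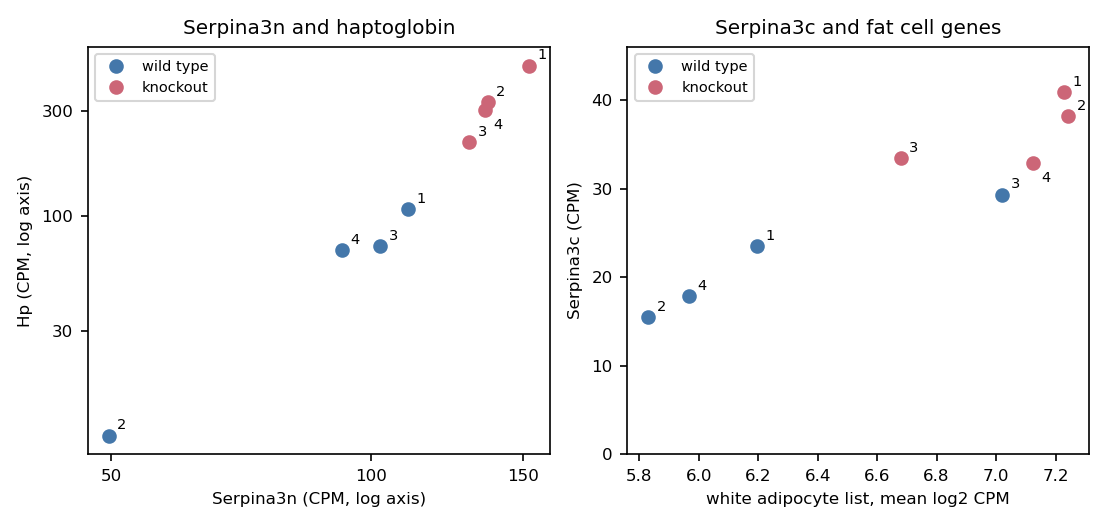
Left: haptoglobin gene Hp against Serpina3n, both in CPM on log axes; right: Serpina3c (CPM, from 0) against the mean log2 CPM of 21 white adipocyte genes; points are libraries numbered by replicate. Hp follows Serpina3n across all 8 libraries, from wild-type replicate 2 at the bottom to knockout replicate 1 at the top, and wild-type replicate 3 lies near the knockout libraries on the adipocyte axis.

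For each tested member, the genes with the most similar pattern of log2 CPM over the 8 libraries were sought among 15148 named genes with a mean of at least 1. Serpina3n was followed most closely by Hp, which encodes the plasma protein haptoglobin made by liver and fat (Pearson's r = 0.987, and 0.987 after subtracting genotype means), then by Nadk (0.985) and Parva (0.980). Hp stood at 108, 10.04, 73.0 and 69.9 CPM in wild type and 481, 328, 215 and 302 CPM in knockout, with wild-type replicate 2 lowest as for Serpina3n. Serpina3c was most like Aldh1l1 and Pde1a and, in the third place, another clade A serpin, Serpina3m, all at r = 0.981. Serpina1b was most like Mcm2 (0.980), Tbc1d13 (0.975) and Gm10052 (0.967). Serpina12 was most like Gm17655 (0.970), Pcdh7 (0.961) and Skint6 (0.959). Skint6 is a gene of the Skint family of epidermis and thymus, and stood at 64.4 CPM in wild-type replicate 2, with 34.2 to 49.7 CPM in the other 7 libraries. These genes were selected for their likeness from 15148, over 8 libraries that share a genotype difference, so the values describe and do not test.

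Among themselves, Serpina3c and Serpina3n had r = 0.900 (and 0.769 after subtracting genotype means, over 8 libraries). Serpina1b and Serpina3n had r = 0.854, and 0.646 after subtraction. Serpina12 and Serpina3n had r = -0.877 after subtraction, with wild-type replicate 2 lowest for Serpina3n and highest for Serpina12. In knockout, replicate 3 was lowest for both genes, so the negative value did not describe the knockout libraries.

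The other clade A serpins of the list were 18 genes, of which 11 passed the filter on low counts. edgeR called 0 of them, with 1 at an unadjusted p under 0.05, and 7 lay above and 4 below 0. DESeq2 called 1, higher, and limma voom called 1 higher and 1 lower. Serpina3m stood at 4.30 ± 1.61 CPM in wild type and 7.53 ± 0.948 CPM in knockout, with no overlap (log2 fold change 0.81 ± 0.24, adjusted p = 0.108). Serpina3k, which encodes contrapsin, stood at 0.41 ± 0.20 and Serpina3g, an inhibitor that acts inside lymphocytes, at -0.23 ± 0.11. Serpina3b stood at 105, 70.0, 153 and 125 CPM in wild type and at 106, 16.0, 102 and 14.8 CPM in knockout (log2 fold change -0.91 ± 0.67, adjusted p = 0.490). Serpina3j stood at 54.7, 35.9, 105 and 59.8 CPM in wild type and at 42.8, 10.2, 54.2 and 9.73 CPM in knockout (-1.12 ± 0.61, adjusted p = 0.355). Both were low in knockout replicates 2 and 4 and overlapped wild type in replicates 1 and 3. The genes for the carriers of cortisol and thyroxine in plasma, Serpina6 and Serpina7, had 1 read each in the 8 libraries together.

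**Figure D4:**
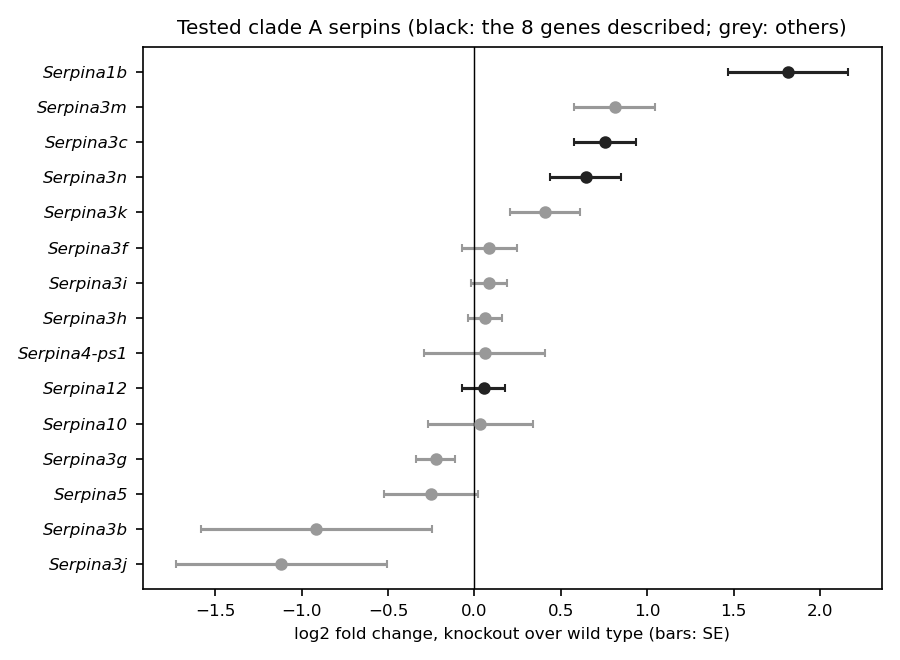
Log2 fold change (knockout over wild type, bars SE) of the 15 clade A serpins that passed the filter on low counts; black points are the genes described here and grey points other genes of the clade. Serpina1b lies highest at 1.81, Serpina3m, Serpina3c and Serpina3n follow between 0.64 and 0.81, and Serpina3b and Serpina3j have the widest bars.

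Secreted serpins of other clades did not pass either. Of 11 genes of clades C to I, 10 were tested, edgeR called 0, with 1 higher at an unadjusted p under 0.05, and DESeq2 and limma voom called 0. Their median log2 fold change was -0.06. Serpinf1, which encodes the growth inhibitor PEDF, stood at a log2 fold change of -0.19 ± 0.10 (SE).

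Proteases that these serpins inhibit had a median log2 fold change of -0.38, with 5 of 6 tested genes below 0. edgeR called 0, with 1 higher and 2 lower at an unadjusted p under 0.05, and DESeq2 and limma voom each called 1 lower, against 8.64% higher and 10.9% lower of all tested genes at that p. Klk7, the target of vaspin in the cornified layer, stood at 198, 160, 170 and 183 CPM in wild type and 134, 153, 132 and 130 CPM in knockout, with no overlap and lower in knockout, which 5.95% of tested genes were (log2 fold change -0.38 ± 0.09, adjusted p = 0.0651). The summed keratinocyte genes were also lower in knockout without overlap. Their mean log2 CPM overlapped, at 9.51 to 9.70 in wild type and 9.44 to 9.62 in knockout. The part of these genes in the Klk7 values was not tested. The granzyme gene Gzmb stood at -0.99 ± 0.45, and Klk14, another kallikrein, at -1.30 ± 0.46. Prtn3, which encodes the neutrophil enzyme proteinase 3, stood at 0.68 ± 0.27. Elane and Ctsg, which encode the classical targets of α1-antitrypsin and antichymotrypsin in neutrophils, had at most 8 reads in any library.

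Acute phase genes, plasma proteins that liver and other tissues make in inflammation, were tested in 11 of 18 cases. The 11 all lay above 0, their median log2 fold change was 0.63, and edgeR called 2 higher, where 0.712% of all tested genes were called higher, and 0 lower, with 6 higher at an unadjusted p under 0.05. Of all tested genes 46.7% lay above 0. DESeq2 and limma voom each called 4 of the 11 higher, against 3.09% and 6.25% of all tested genes. Orm3, an orosomucoid gene, rose from 1.77 ± 0.671 to 4.18 ± 0.42 CPM (log2 fold change 1.25 ± 0.24, adjusted p = 0.0416). C3, the central complement component, rose from 553 ± 62.4 to 857 ± 125 CPM (0.63 ± 0.13, adjusted p = 0.0463). Over the fits that leave out 1 library the adjusted p reached 0.127 for Orm3 and 0.147 for C3. With the adipocyte covariate the edgeR adjusted p was 0.326 for Orm3 and 0.287 for C3, in a fit that called 2 genes in all. Hp stood at 2.35 ± 0.61 (adjusted p = 0.101) and Crp at 1.13 ± 0.29 (adjusted p = 0.0806). Saa1, Saa2 and Saa3, the serum amyloid genes, did not pass the filter on low counts, with means of at most 0.289 CPM in either genotype.

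Regulators known to act on these genes gave 0 of 11 called by edgeR, with 4 higher at an unadjusted p under 0.05, 3 higher by DESeq2 and 2 by limma voom, against 8.64%, 3.09% and 6.25% of all tested genes. Their median log2 fold change was 0.20, with 8 above and 3 below 0, and the genes named next are those with the smallest p. Cebpd, a transcription factor of the acute phase and of fat cells, stood at 0.59 ± 0.16 (adjusted p = 0.0949), Il6st, the shared receptor subunit of the interleukin 6 family, at 0.29 ± 0.09, and Il6ra at 0.32 ± 0.10. The glucocorticoid-induced gene Tsc22d3 stood at 362, 142, 202 and 358 CPM in wild type and 513, 418, 701 and 435 CPM in knockout (log2 fold change 0.96 ± 0.30, adjusted p = 0.140).

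Markers of the other cells that could make or meet these inhibitors were described by their counts. Of 10 macrophage genes edgeR called Mrc1 alone, the mannose receptor gene, at 0.58 ± 0.12 (adjusted p = 0.0483, up to 0.119 with 1 library left out). The list median was 0.16, with 1 gene higher and 1 lower at an unadjusted p under 0.05. The lower gene was Lyz2, at -0.56 ± 0.18. DESeq2 called 1 higher, as did limma voom. Neutrophil genes passed the filter in 5 of 10 cases, with 0 called by edgeR and 2 lower at an unadjusted p under 0.05, and DESeq2 called 1 lower and limma voom 1 higher and 1 lower. Their summed level was between 12.9 and 28.5 CPM in wild type and 14.8 and 19.6 CPM in knockout. Keratinocyte, fibroblast, sebaceous gland and skeletal muscle genes gave 0 of 10 each by edgeR, with 1, 2, 2 and 2 at an unadjusted p under 0.05 in either direction, 1 each by DESeq2, and 2, 1, 3 and 1 by limma voom.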

How the data were processed

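Gene counts for 8 RNA-seq libraries of back skin were used as the authors deposited them, in 1 table of 49763 features with exon lengths. The submitters' processing notes name GSNAP, featureCounts 1.6.2 and the mouse build mm10. The labels name more than one library kit, so whether strand was used is unknown. The 92 spike-in rows, with at most 1 read in any library, were left out.

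Genes were filtered with edgeR's filterByExpr (19099 of 49671 kept), scaled by TMM and fitted with edgeR's robust quasi-likelihood test (R 4.3.3, edgeR 4.0.16), knockout against wild type. The p-values were adjusted by Benjamini-Hochberg over all tested genes, with a threshold of 0.05. SE is the log2 fold change divided by the root of the F statistic. For each Serpina1 sum, the rows of its copies were replaced by a single row of summed counts. DESeq2 1.42.0, limma voom 3.58.1 with quality weights, other scalings and filters, a white adipocyte covariate and leaving out each library were alternatives.

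The members, the gene lists and the tests were chosen with earlier results of these data known. Named genes are the members, Flg, up to 4 genes of each list with the smallest p, and 3 genes per tested member with the most similar pattern. Apob, Ahsg, Cyp2e1, the Saa genes, Serpina6, Serpina7, Elane and Ctsg were named after their values were seen. Serpin sequences came from RefSeq (GRCm38.p6, promoters; all 8 matched) and GENCODE M21 (coding). Some genes of the lists are not reported here by name. Intervals and floors cover counting error only.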

Additional observations from a re-analysis of the deposited data

Results flagged for a closer look

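In 50 groups of 4 libraries, 6 had a library far from the other 3 of its genotype by Dixon's criterion, where chance gives about 1 in 20. Serpina12 stood at 112.7 CPM in wild-type replicate 2 and at 75.9 to 78.9 CPM in the other wild-type libraries. In the same library the keratinocyte genes had the lowest wild-type sum, 13181.5 CPM, which the most abundant genes weigh most. Their mean log2 CPM was highest in that library, at 9.70. Serpina1a stood at 0.0843 CPM in wild-type replicate 3, from 2 reads, and Serpina1c at 0.0289 CPM in wild-type replicate 1, from 1 read, with no reads in the other wild-type libraries. Any count above 0 then meets the criterion, so the share of 1 in 20 does not apply to these genes. Wild-type replicate 3 was far above the others in the summed hepatocyte list, at 727 CPM, and in the summed sebaceous gland list, at 1593 CPM. The causes were not tested.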

How the results depend on the processing

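Serpina1b kept its direction in every alternative run, and so did the sum of the 5 copies, between 1.49 and 2.04 and between 1.74 and 2.19 on the log2 scale when 1 library was left out. With DESeq2, 2 of the 3 tested members other than Serpina1b were called, with 1177 genes in all and 26 over the gene lists, where edgeR called 270 and 3. Serpina3c then stood at 0.77 (adjusted p = 0.00312) and Serpina3n at 0.66 (adjusted p = 0.0321). The 4 copies without Serpina1b stood at 2.61, with no test read, since that sum passed the filter on low counts only through knockout. Limma voom called 2 members, 2556 genes in all and 35 in the lists, with Serpina3c at 0.82 and Serpina3n at 0.58. With no filter except 1 count, 502 genes and 7 list genes were called, and with upper quartile factors 5 list genes. The adipocyte covariate left 2 genes and 0 list genes, with Flg at -1.30 (adjusted p = 0.0632). Leaving out 1 library gave between 0 and 1 members called, between 11 (without knockout replicate 2) and 1325 genes (without wild-type replicate 3) and between 0 and 25 list genes, with Serpina3c between 0.63 and 0.95 and Serpina3n between 0.45 and 0.76. The direction turned for genes whose change was near 0: Skint6, at -0.05, stood at 0.093 with limma voom, at 0.25 with the covariate and between -0.14 and 0.21 with 1 library left out, Vtn, at 0.24, at -0.049 with the covariate, and Pcdh7, at 0.03, between -0.025 and 0.16 with 1 library left out. The filter of at least 1 CPM gave no value for the 4 copies without Serpina1b. The causes were not tested. No paired analysis was possible because the labels give no replicate numbers that pair libraries. Serpina1a and Serpina1c, with 18 and 13 reads over all libraries, are limited by depth.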
